A study of Mus musculus with 6 samples.

Results

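The semaphorins, plexins and neuropilins are the ligands and receptors of 1 guidance system, and they were compared between tissue from above and below the mouse aorta at embryonic day 11.5. The group was taken by gene symbol from the array's platform table and has 31 genes (20 semaphorins, 9 plexins and 2 neuropilins), all of them present among the 24015 named genes. The dorsal tissue is what separates the notochord from the roof of the dorsal aorta, and the ventral tissue lies beneath the vessel. Both were cut by laser microdissection from frozen sections of unmanipulated C57Bl/6 embryos, the same embryos giving both tissues per the labels, and RNA in picogram amounts was amplified before hybridisation. Each tissue was measured on 3 Affymetrix whole-transcript arrays, labelled as biological replicates 1 to 3, so that every value below rests on 3 dorsal and 3 ventral arrays. The study concerns the surroundings of hematopoietic stem cells, which appear in the aorta at this stage, and the comparison asks which of these genes are expressed unequally above and below the vessel.

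Semaphorins are secreted or membrane-bound proteins that steer growing axons, migrating neural crest cells and sprouting vessels, mostly by repelling them. Plexins are their signalling receptors, whose intracellular part switches off small Ras-family GTPases and reshapes the cytoskeleton. Most secreted class 3 semaphorins cannot bind plexins alone and use the neuropilins Nrp1 and Nrp2 as co-receptors, which also bind vascular endothelial growth factor (VEGF). In the trunk of the embryo, Sema3a acting through Nrp1 keeps axons and neural crest out of the tissue that expresses it, and Sema3e acting through Plxnd1 keeps vessels out of the somites.

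No member passed the threshold, an adjusted p of 0.05 in limma. Sema3a and Sema5a came nearest, both with lower values on all ventral than on all dorsal arrays, by 3.94-fold and 2.89-fold on average. For Sema3a that ratio is only rough, because its ventral mean (log2 level 4.74) lay near the 4.52 needed for testing. Sema3c and Sema3f lay on the same side with smaller differences, whereas the receptors Nrp1 and Plxnd1 and the ligand Sema6d had higher means in ventral tissue. Of the 31 members, 22 were bright enough to be tested (log2 level of 4.52 or more, averaged across arrays), and 0 of the 22 passed, where 0.515% of all 12028 tested genes did. At an unadjusted limma p under 0.05 there were 7 members, 4 higher in dorsal and 3 higher in ventral tissue, beside 10.7% of all tested genes (5.14% higher in dorsal and 5.6% in ventral tissue). The dorsal and ventral arrays did not overlap for 7 members, 3 higher in dorsal and 4 in ventral tissue, where 15.4% of all tested genes did not overlap (7.88% and 7.5%). The median log2 fold change, ventral minus dorsal, was −0.077 over the 22 tested members and −0.015 over all tested genes, with 9 positive and 13 negative values. In tissue of mixed cells, fewer cells of a type and less RNA per cell cannot be told apart.

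**Figure D1:**
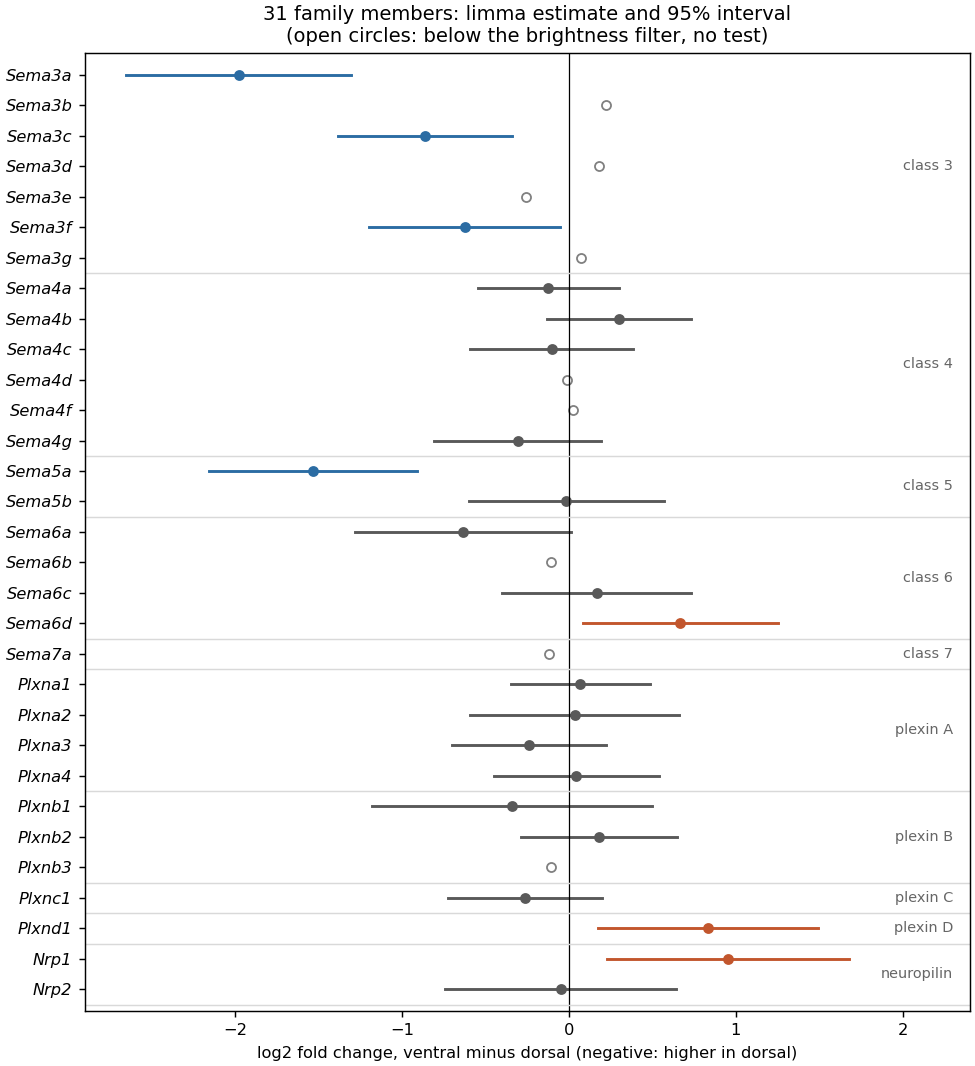
Log2 fold change of each of the 31 genes, ventral minus dorsal, with its 95% interval from limma where it was tested. Blue and orange mark intervals wholly below and wholly above 0, grey those that include 0, and open circles the 9 genes below the brightness filter. Sema3a (−1.98) and Sema5a (−1.53) lie farthest to the left, and Nrp1 (0.95) and Plxnd1 (0.83) farthest to the right.

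The sequences just upstream of the start sites are shown for the 4 members with the largest log2 fold changes in either direction, a pair of ligands with higher dorsal means and a pair of receptors with higher ventral means. Each run is the 250 bases before the annotated start, 5′ to 3′ on the gene's strand, from RefSeq on build GRCm38.p6. Capitals mark CG dinucleotides.
Sema3a, chr5:13396534-13396783, plus strand: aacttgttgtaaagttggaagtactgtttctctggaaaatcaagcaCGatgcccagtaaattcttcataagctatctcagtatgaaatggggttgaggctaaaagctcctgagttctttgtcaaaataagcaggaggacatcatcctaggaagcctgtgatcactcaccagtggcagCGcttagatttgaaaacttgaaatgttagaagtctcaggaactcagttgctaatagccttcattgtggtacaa
Sema5a, chr15:32244563-32244812, plus strand: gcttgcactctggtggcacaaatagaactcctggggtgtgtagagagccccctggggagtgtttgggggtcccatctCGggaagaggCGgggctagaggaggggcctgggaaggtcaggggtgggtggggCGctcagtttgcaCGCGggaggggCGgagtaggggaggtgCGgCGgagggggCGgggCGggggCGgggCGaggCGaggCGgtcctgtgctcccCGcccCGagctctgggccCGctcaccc
Nrp1, chr8:128358823-128359072, plus strand: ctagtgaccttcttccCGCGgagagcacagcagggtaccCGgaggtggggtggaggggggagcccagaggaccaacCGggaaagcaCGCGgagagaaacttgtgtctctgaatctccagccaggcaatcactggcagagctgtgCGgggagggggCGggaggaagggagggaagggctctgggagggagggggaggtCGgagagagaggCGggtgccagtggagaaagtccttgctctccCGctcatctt
Plxnd1, chr6:115995006-115995255, minus strand: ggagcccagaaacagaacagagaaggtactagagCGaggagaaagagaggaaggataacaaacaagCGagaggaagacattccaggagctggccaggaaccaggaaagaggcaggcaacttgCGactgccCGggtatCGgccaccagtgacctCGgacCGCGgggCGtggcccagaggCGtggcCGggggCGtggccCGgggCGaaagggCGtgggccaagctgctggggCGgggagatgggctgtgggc
The Sema3a window had 2 CG dinucleotides and a GC content of 40.8%, against medians of 6 and 52.4% over the 32851 windows of all genes. Those of Sema5a, Nrp1 and Plxnd1 had 17, 11 and 16 CG dinucleotides and GC contents of 72.0%, 64.4% and 64.8%. The medians over the 37 windows of members were 13 and 64.0%, so that of the 4 windows shown Sema3a's stood farthest from them. The 2 genes with the nearest p-values therefore do not share this feature. The GC box GGGCGG, searched on both strands with overlapping matches counted, occurred 5 times in the Sema5a window, once each in those of Nrp1 and Plxnd1 and 0 times in that of Sema3a, and 32.7% of all windows held it. None of the 4 windows held the letters of a GATA site (AGATAA, in 9.99% of all windows), an E-box (CAGCTG, 13.0%), a SOX site (AACAAT, 9.42%), a forkhead site (GTAAACA, 3.17%) or a Gli site (GACCACCCA, 0.225%). Of the 31 members 26 had a window in the table, and Plxna1, Plxna4, Sema3b, Sema3f and Sema6a had none.

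Among the secreted class 3 ligands, Sema3a, the axon repellent that acts through Nrp1 and class A plexins, had log2 levels of 7.40, 6.13 and 6.62 on dorsal arrays 1 to 3 and of 4.89, 4.93 and 4.40 on ventral arrays 1 to 3. Every dorsal array lay above every ventral one. Dorsal tissue averaged 6.72 ± 0.64 (SD, n = 3) and ventral tissue 4.74 ± 0.30 (SD, n = 3), and the ventral minus dorsal differences of the 3 same-numbered pairs were −2.52, −1.20 and −2.22. The log2 fold change was −1.98 ± 0.28 (SE; 95% interval −2.65 to −1.31; unadjusted p = 0.000296, adjusted p = 0.0563). Of all tested genes 62 passed, and Sema3a ranked 63 by p-value. Its call depended on the settings. With the prior variance fitted as a trend on brightness (limma-trend) it passed (adjusted p = 0.0396), and without the replicate 2 pair, whose difference was the smallest, it passed too (0.0111), while over the 16 alternatives the adjusted p ran up to 0.190.

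Sema3c, which attracts or repels cells through both neuropilins and Plxnd1 and is needed for the cardiac outflow tract, had log2 levels of 7.43, 6.84 and 5.68 in dorsal and of 6.44, 5.64 and 5.29 in ventral tissue. The groups overlapped, because dorsal 3 lay below ventral 1, but each ventral array lay below its same-numbered dorsal array, with differences of −0.99, −1.20 and −0.39. Replicate 1 was the highest and replicate 3 the lowest in both tissues, and the result leaned on the pairing: the log2 fold change of −0.86 ± 0.22 had an unadjusted p of 0.00632 (adjusted p = 0.212) with the replicate number as a block and of 0.0999 (adjusted p = 0.608) without it. Without the block, the value was −0.47 without dorsal 1 and −1.35 without dorsal 3. Sema3f, which acts through Nrp2, had levels of 7.43, 6.94 and 6.54 in dorsal and of 6.39, 6.16 and 6.50 in ventral tissue. Its arrays did not overlap, although ventral 3 was only just below dorsal 3 (−0.042), and the log2 fold change was −0.62 ± 0.24 (adjusted p = 0.427). It was −0.41 without the replicate 1 pair and, without the block, −0.39 without dorsal 1. The 3 tested class 3 genes thus all had negative values.

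The other 4 class 3 genes were below the brightness filter. Sema3e, the ligand of Plxnd1, had log2 levels of 3.94, 3.49 and 3.97 in dorsal and of 3.72, 3.11 and 3.79 in ventral tissue, a difference of −0.26 with overlapping arrays. Sema3b differed by 0.22, Sema3d by 0.18 and Sema3g by 0.073, also with overlapping arrays. Signals this weak leave only a rough measure of transcript, and no exact ratio is drawn from them. In the RefSeq gene order, Sema3d, Sema3a, Sema3e and Sema3c lie in this order on chromosome 5, with 0, 3 and 15 annotated protein-coding genes between neighbours. Sema3a thus sits between a pair of genes that were below the filter on nearly all arrays, the exception being dorsal 1 for Sema3d (4.82).

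**Figure D2:**
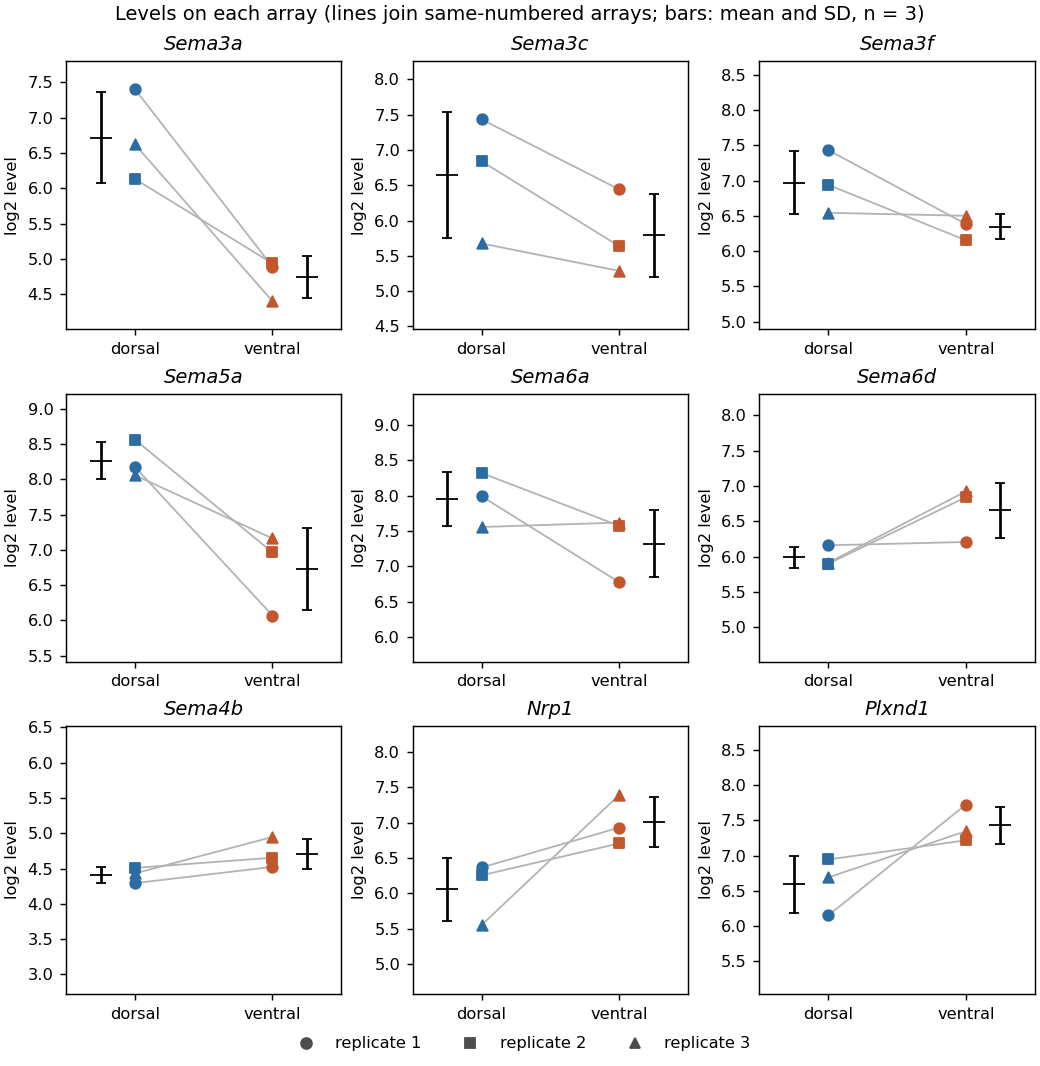
Log2 level on each array (vertical axes, all spanning an equal range) for the 7 members with an unadjusted p under 0.05, Sema4b, whose arrays did not overlap, and Sema6a, just outside that p (0.0531). Marker shapes give the replicate number, lines join same-numbered arrays, and bars give the mean and SD of 3 arrays. All Sema3a and Sema5a lines slope down, and all Nrp1 and Plxnd1 lines slope up, by unequal amounts.

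Sema5a belongs to the membrane semaphorins with thrombospondin repeats, which can attract or repel axons, and had log2 levels of 8.18, 8.56 and 8.06 in dorsal and of 6.07, 6.96 and 7.16 in ventral tissue. Every ventral array was below every dorsal array, with ventral 1 the lowest by a wide margin. Dorsal tissue averaged 8.27 ± 0.26 (SD, n = 3) and ventral tissue 6.73 ± 0.58 (SD, n = 3), and the log2 fold change was −1.53 ± 0.26 (95% interval −2.15 to −0.91; unadjusted p = 0.000798, adjusted p = 0.0856). It passed under limma-trend (adjusted p = 0.0492) and under no other alternative, where the adjusted p reached 0.267. Sema5b, the other class 5 gene, averaged 5.54 ± 0.46 in dorsal and 5.53 ± 0.08 in ventral tissue, and its log2 fold change of −0.017 had a 95% interval of −0.60 to 0.57. Whether the 2 class 5 genes differ in their tissue difference was not tested.

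In class 6, whose members are transmembrane ligands of class A plexins, the tested genes pointed in different directions. Sema6d, a ligand of Plxna1 with roles in heart development, had log2 levels of 6.16, 5.90 and 5.91 in dorsal and of 6.21, 6.84 and 6.92 in ventral tissue. The arrays did not overlap, but pair 1 differed by only 0.047 against 0.94 and 1.01 in the others, and the log2 fold change was 0.67 ± 0.24 (adjusted p = 0.392). Sema6a, a ligand of Plxna2 and Plxna4, had levels of 7.99, 8.32 and 7.56 in dorsal and of 6.77, 7.57 and 7.62 in ventral tissue. Its arrays overlapped, pair 3 lying slightly on the other side (0.063), and the log2 fold change was −0.63 ± 0.27 (adjusted p = 0.471). Sema6c had a log2 fold change of 0.17 ± 0.24, and Sema6b was below the filter (−0.11).

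The class 4 genes encode transmembrane ligands mainly of class B plexins and are known from immune cells, vessels and neurons. Of the 6 genes, 4 were tested, and all of their log2 fold changes lay within 0.31 of 0. Sema4b had 4.29, 4.51 and 4.43 in dorsal and 4.52, 4.65 and 4.95 in ventral tissue, close to the filter level and just without overlap (0.30 ± 0.18, adjusted p = 0.641). It passed the filter only through its ventral mean of 4.71, the dorsal mean being 4.41, so its place among the 4 members with higher ventral arrays is no support for a difference. Sema4g (−0.31 ± 0.21), Sema4a (−0.12 ± 0.18) and Sema4c (−0.10 ± 0.20) overlapped. Sema4d, the ligand of Plxnb1, and Sema4f were below the filter, at −0.013 and 0.025. Sema7a, the only semaphorin with a lipid (GPI) anchor, was below it as well (−0.12). Over the 9 untested members of all classes, single arrays ran from 3.11 to 4.82, the differences from −0.26 to 0.22, and all 9 overlapped between the tissues. With the filter left out none of them passed, the lowest unadjusted p being 0.113.

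Of the 2 neuropilins, Nrp1 had an unadjusted p under 0.05 and Nrp2 did not, and the difference between them was not tested. Nrp1, the co-receptor of Sema3a and of VEGF, had log2 levels of 6.37, 6.26 and 5.55 in dorsal and of 6.93, 6.71 and 7.39 in ventral tissue. All ventral arrays were above all dorsal ones, and pair 3 differed most (1.84, against 0.56 and 0.45). Dorsal tissue averaged 6.06 ± 0.44 (SD, n = 3) and ventral tissue 7.01 ± 0.35 (SD, n = 3), and the log2 fold change was 0.95 ± 0.30 (95% interval 0.23 to 1.68; unadjusted p = 0.0177, adjusted p = 0.321), or 1.94-fold. Without the replicate 3 pair it was 0.51. Nrp2, the co-receptor of Sema3f, had 8.17, 7.82 and 7.43 in dorsal and 7.49, 7.61 and 8.17 in ventral tissue. Its arrays overlapped, the pairs differing by −0.68, −0.21 and 0.74, and the log2 fold change of −0.050 had a 95% interval of −0.74 to 0.64, so that a difference of up to those sizes in either direction was not resolved.

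Plxnd1, the plexin of endothelial cells and the receptor of Sema3e, had log2 levels of 6.15, 6.94 and 6.69 in dorsal and of 7.72, 7.22 and 7.34 in ventral tissue. The arrays did not overlap, and pair 1 differed most (1.57, against 0.27 and 0.65). The log2 fold change was 0.83 ± 0.27 (95% interval 0.17 to 1.49; unadjusted p = 0.0208, adjusted p = 0.344), or 1.78-fold, and without the replicate 1 pair it was 0.46. Its known ligand Sema3e was below the filter in both tissues.

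The class A plexins, which signal for class 3 and class 6 ligands, had log2 fold changes close to 0. Plxna1 had 7.07, 6.93 and 7.33 in dorsal and 7.12, 7.13 and 7.29 in ventral tissue, and its interval of −0.35 to 0.48 was the narrowest of all tested members. Plxna2 (0.034 ± 0.26), Plxna3 (−0.24 ± 0.19) and Plxna4 (0.043 ± 0.21) also overlapped between the tissues, and all 4 genes had an adjusted p of 0.741 or more. Among class B plexins, receptors of class 4 ligands, Plxnb2 had a log2 fold change of 0.18 ± 0.19. Plxnb1 had one of −0.34 ± 0.35, with pairs at 0.66, −0.47 and −1.22, the least even member by standard error. Plxnb3, which binds Sema5a, was below the filter (−0.11), and Plxnc1, the receptor of Sema7a, was at −0.26 ± 0.19. Of the 8 plexins tested 5 had positive and 3 negative values, and 1 (Plxnd1) had an unadjusted limma p under 0.05. Of the 12 semaphorins tested 3 had positive and 9 negative values, and 5 had an unadjusted limma p under 0.05. Over all tested genes 47.7% had positive values and 10.7% such a p.

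**Figure D3:**
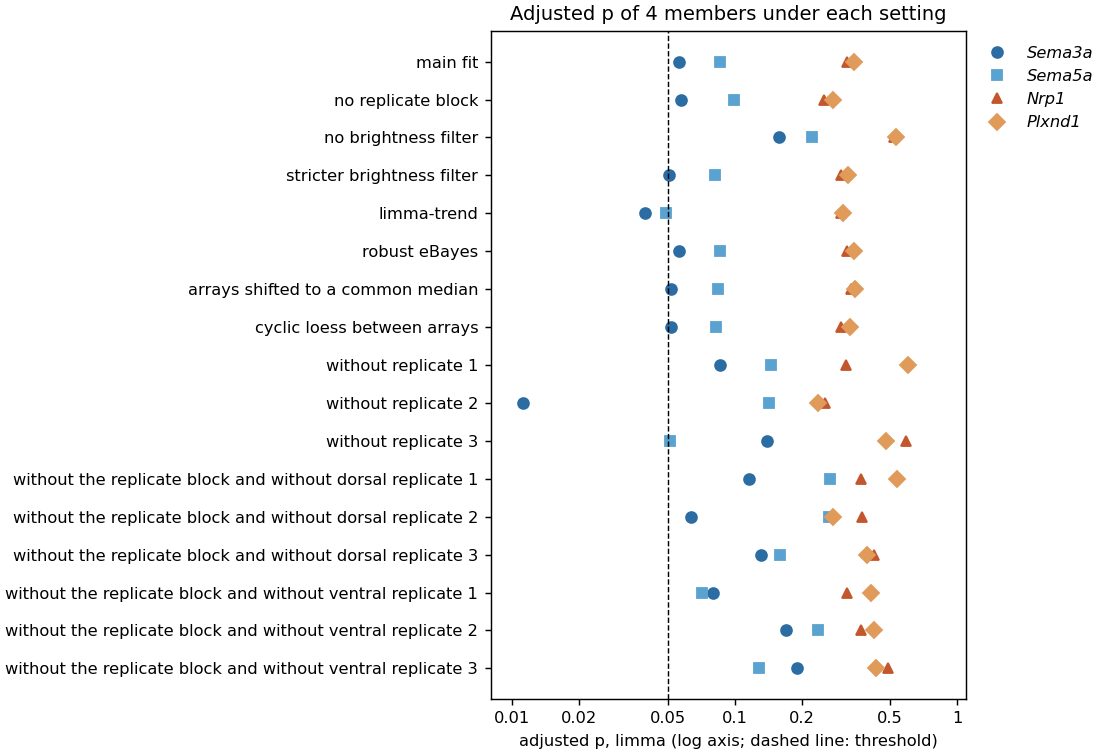
Adjusted p from limma (horizontal log axis) of Sema3a, Sema5a, Nrp1 and Plxnd1 in the main fit and under 16 alternative settings (rows); the dashed line is the threshold of 0.05. Sema3a lies left of the line under limma-trend and without replicate 2, Sema5a under limma-trend, and Nrp1 and Plxnd1 under none.

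Partners of these receptors were taken from a list of 58 genes (co-receptors, VEGF ligands and receptors that share the neuropilins, and cytoplasmic effectors), of which 56 were in the platform table and 44 were tested. None passed at the adjusted limma threshold. An unadjusted limma p under 0.05 was seen for 8 genes with higher ventral and 3 with higher dorsal means, out of 44, where 5.6% and 5.14% of all tested genes had one, and the median log2 fold change was 0.044 against −0.015 over all tested genes. The VEGF receptor Kdr, which forms a complex with Nrp1 and is itself an endothelial marker, had 4.99, 5.83 and 5.72 in dorsal and 6.16, 6.47 and 6.90 in ventral tissue, without overlap (1.00 ± 0.20, adjusted p = 0.121). Flt1, the other VEGF receptor of blood vessels, was at 0.60 ± 0.20 (adjusted p = 0.358), its arrays not overlapping either. Their ligands Vegfa (−0.069 ± 0.20) and Vegfb (0.092 ± 0.19) had values near 0. Vegfc, a VEGF of lymphatic vessels, had pairs at −2.01, 1.18 and 0.60, so that its log2 fold change of −0.079 came with an SE of 0.57.

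The co-receptors and binding partners on the cell surface had 9 tested genes of 16. Of the 9, 8 had positive values, where 47.7% of all tested genes did. An unadjusted limma p under 0.05 was reached by 2 of them, where 10.7% of all tested genes had one. Itga1 (0.021 ± 0.17) and Ptk7 (0.036 ± 0.22) were near 0, and L1cam was the negative one (−0.32 ± 0.20, adjusted p = 0.661). Robo1, a Slit receptor that can associate with neuropilins, had 8.70, 8.10 and 8.55 in dorsal and 8.97, 9.28 and 9.09 in ventral tissue, without overlap (0.66 ± 0.23, adjusted p = 0.356). Tyrobp, a signalling adaptor of macrophages that can couple to class A plexins, was at 0.61 ± 0.21 (adjusted p = 0.366) with overlapping arrays. Its unadjusted limma p was 0.0258 with the replicate block and 0.163 without it.

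Among cytoplasmic effectors, the collapsin response mediators, which transmit the Sema3a signal to microtubules, had Dpysl5 at 6.08, 5.95 and 6.47 in dorsal and 5.51, 5.17 and 5.81 in ventral tissue (−0.67 ± 0.17, adjusted p = 0.216), without overlap. Crmp1 was at −0.59 ± 0.25 (adjusted p = 0.477), and Dpysl2 (−0.18 ± 0.17), Dpysl3 (−0.011 ± 0.18) and Dpysl4 (0.27 ± 0.24, the positive one of the 5) overlapped. Rnd3, a small GTPase that can bind plexins, was at −0.93 ± 0.22 (adjusted p = 0.191), and Rapgef2, an exchange factor for Rap1, at −0.60 ± 0.19 (adjusted p = 0.315). On the ventral side, Mical2, an actin-oxidising enzyme of the MICAL group that acts below class A plexins, had 4.48, 4.03 and 4.64 in dorsal and 5.13, 5.07 and 5.20 in ventral tissue (0.75 ± 0.19, adjusted p = 0.207). Mical2 passed the brightness filter only through its ventral level, its dorsal mean being 4.38, so its place among the 8 ventral genes is no support for a difference. The small GTPases Rras (0.87 ± 0.27, adjusted p = 0.310) and Rap1b (0.72 ± 0.20, adjusted p = 0.268), which plexins inactivate, had higher ventral means as well, and the arrays of Rras overlapped. For Rras the unadjusted limma p was 0.0163 with the replicate block and 0.0841 without it. Limk2, a kinase that regulates actin through cofilin, had 5.54, 5.52 and 5.65 in dorsal and 6.32, 5.81 and 6.32 in ventral tissue (0.58 ± 0.19, adjusted p = 0.333), without overlap. Rnd3 passed in 1 of 16 alternatives, with both the block and ventral 1 left out (limma adjusted p = 0.0491). In that setting 104 of all tested genes passed. With only the block left out Rnd3 did not pass (limma adjusted p = 0.386).

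**Figure D4:**
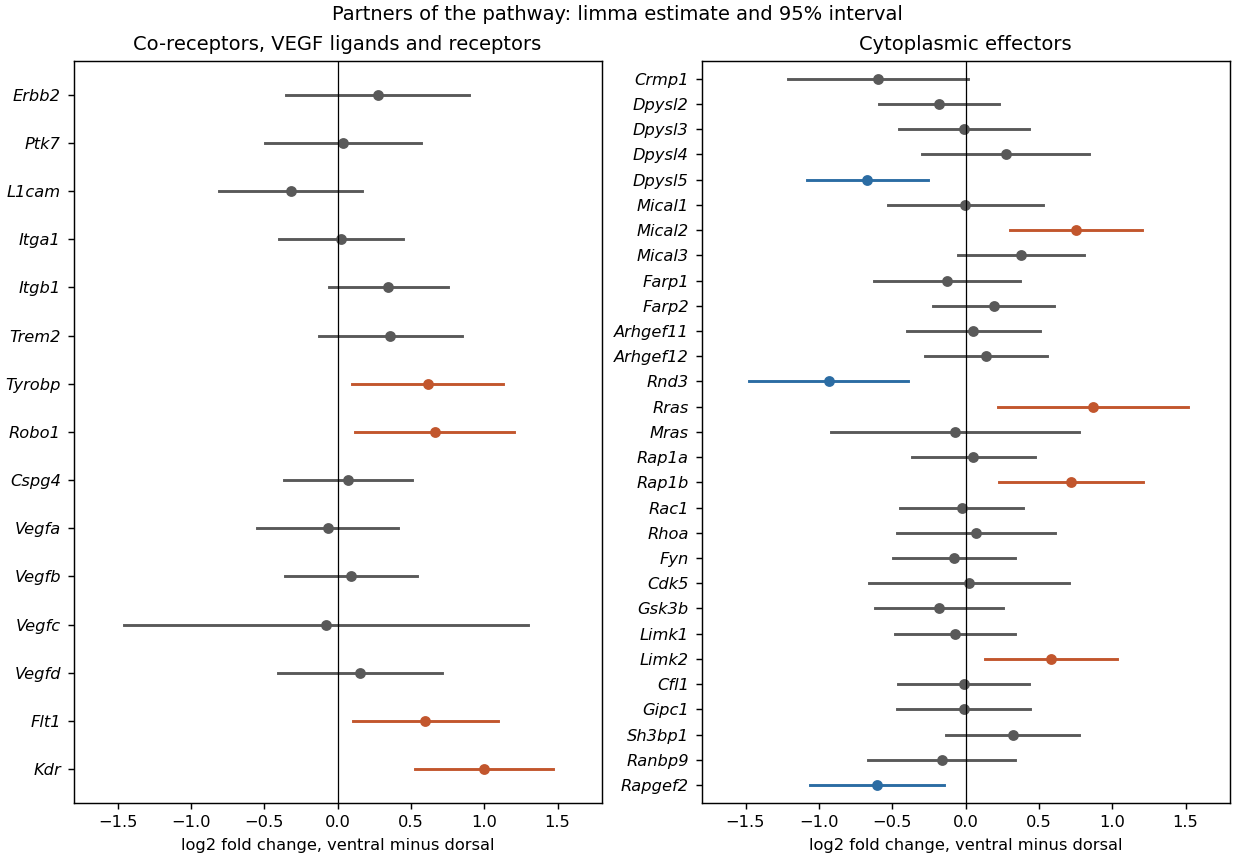
Log2 fold change, ventral minus dorsal, with its 95% interval from limma for the 44 tested partner genes, co-receptors with VEGF ligands and receptors on the left and cytoplasmic effectors on the right. Blue and orange mark intervals wholly below and wholly above 0. Kdr (1.00) has the highest value and Rnd3 (−0.93) the lowest.

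Markers of several cell types the dissected tissue can hold differed between the tissues on the same arrays. The mean log2 level of 5 sclerotome and cartilage markers (Pax1, Pax9, Nkx3-2, Sox9 and Col2a1), all 5 above the filter, was 6.98 to 7.74 on dorsal and 5.31 to 5.59 on ventral arrays, and 5 of 5 had negative log2 fold changes. Sema3a and Sema5a shared that side. So did the means of neural crest and of erythroid markers, which did not overlap either, and 6 of 8 neuronal markers. The neural crest mean separated only just (dorsal 3 at 4.73, ventral 1 at 4.71). Neuronal markers, 8 genes with 1 (Elavl4) below the filter, averaged 6.37 to 6.80 on dorsal and 5.66 to 6.64 on ventral arrays, with 6 of 8 negative. Endothelial markers, 10 genes with 1 (Esam) below the filter, averaged 5.36 to 6.12 on dorsal and 5.97 to 6.40 on ventral arrays, overlapping at dorsal 2. Of these, 10 of 10 had positive log2 fold changes. Nrp1 and Plxnd1 lay on that side too. So did the means of smooth muscle and pericyte, macrophage and coelomic markers, which, unlike the endothelial mean, did not overlap between the tissues. The macrophage mean separated only just (dorsal 2 at 5.31, ventral 3 at 5.32). Markers of smooth muscle and pericytes, all 6 above the filter, averaged 5.56 to 6.42 on dorsal and 6.57 to 8.42 on ventral arrays, with 6 of 6 positive. Markers of neural crest and Schwann precursors, 4 in the table with Sox10 below the filter, averaged 4.73 to 5.29 on dorsal and 4.58 to 4.71 on ventral arrays. Macrophage markers, 5 genes with Ptprc below the filter, averaged 4.82 to 5.31 on dorsal and 5.32 to 5.72 on ventral arrays, the side of Tyrobp. Erythroid markers, 3 in the table and all above the filter, averaged 5.88 to 6.40 on dorsal and 5.31 to 5.67 on ventral arrays, with 3 of 3 negative. Markers of the coelomic epithelium, 4 genes with Msln below the filter, averaged 4.47 to 4.82 on dorsal and 5.56 to 5.88 on ventral arrays, with 3 of 4 positive. Sympathoadrenal markers, 3 in the table, overlapped (5.93 to 7.76 on dorsal and 5.61 to 7.40 on ventral arrays). Of 3 notochord markers in the table Noto and Foxa2 were below the filter, as were all 4 of the mesonephros. The part of these cell types in the values of the semaphorins and their receptors was not tested.

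**Figure D5:**
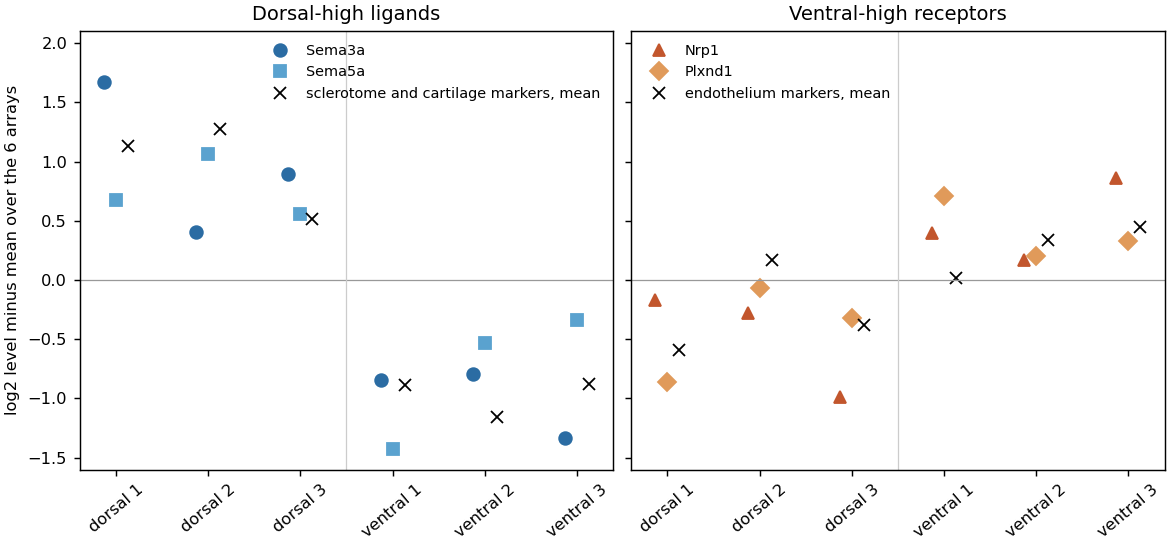
Log2 level on each array minus the mean over the 6 arrays, for Sema3a and Sema5a with the mean of 5 sclerotome and cartilage markers (left) and for Nrp1 and Plxnd1 with the mean of 10 endothelial markers (right). The sclerotome mean separates the tissues, as Sema3a and Sema5a do, while the endothelial mean on dorsal 2 (6.12) exceeds that on ventral 1 (5.97). Other marker lists that lay on the same sides are not drawn.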

How the data were processed

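Sample titles gave the groups, 3 arrays each. What the authors deposited is 1 log2 level per probe set and array, computed with Affymetrix Expression Console and RMA per the submitters' processing notes. RMA corrects background, quantile-normalises arrays and summarises probes. Software versions and the genome build are not stated by the sources. Amplification of picogram RNA and array background can compress differences of weak genes, which was not measured here. The array medians ran from 4.49 to 4.55.

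All 24015 named probe sets (of 24973) were read, 12028 of them with a mean at or above the median probe set, and tested with limma 3.58.1 under R 4.3.3 (lmFit, eBayes, two-sided, Benjamini-Hochberg over all tested genes, threshold 0.05). The fit held tissue and, as a block, the replicate number, giving 6.41 degrees of freedom per test. The block was used because, per the labels, each embryo gave both tissues. The labels do not tie numbers to embryos, and deviations of same-numbered arrays correlated by only 0.0992, 0.0763 and 0.226. The code was tested on simulated data without a replicate effect and with planted differences larger than that of any member. That test therefore does not bear on the calls of the members. All 31 members are accounted for. Array values are given for members without overlap or with the 3 highest or lowest log2 fold changes, and, chosen after their values were seen, for Sema6a, Sema3e, Sema3d, Nrp2 and Plxna1. Partner genes are named by the 4 highest and 4 lowest values, and Flt1, Robo1, Tyrobp, Itga1, Ptk7, L1cam, Limk2, Vegfa, Vegfb, Vegfc, Dpysl2, Dpysl3 and Dpysl4 were added after their values were seen. The members and lists were chosen with earlier results of these data known. The p-values set the tissue difference against the spread between these arrays that is left after the block, moderated over all tested genes.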

Additional observations from a re-analysis of the deposited data

How the results depend on the processing

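The number of arrays and the weak signal of 9 members limit what can be resolved. Of the 22 tested members 0 passed in the main fit and 0 without the replicate block, where Sema3a had an adjusted p of 0.0573, and the block changed no call of a member. Under limma-trend 2 members passed, and 0 to 1 with a pair or an array left out. The count over all genes, 62, was 10 without the brightness filter and 94 under limma-trend, and ran from 12 to 104 with arrays left out (without the block, 12 without dorsal 1, 23 without dorsal 2, 40 without dorsal 3, 104 without ventral 1, 13 without ventral 2 and 18 without ventral 3). Leaving arrays out moved the median over the members between −0.174 and −0.034, the positive members between 5 and 10, and partner genes passing between 0 and 1. The tested members that changed sign with an array or a pair left out were Sema4c (−0.31 to 0.0010), Sema5b (−0.19 to 0.30), Sema6c (−0.13 to 0.33), Plxna1 (−0.023 to 0.18), Plxna2 (−0.32 to 0.29), Plxna4 (−0.29 to 0.24), Plxnb1 (−0.84 to 0.097) and Nrp2 (−0.45 to 0.27). The causes were not tested. Sema4a, Sema4b, Sema4g, Sema6c, Plxnc1 and Mical2 had no value under the stricter brightness filter, a level of 5.09, because they lay below it. None of the 7 members with an unadjusted p under 0.05 changed sign under any of the 16 alternatives. This outcome was largely fixed in advance and is no support for a difference. These members were picked by p in the same data, and all pairs of each lay on the same side. Several of the alternatives also leave the log2 fold change as it was.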
